A study of Rattus norvegicus with 24 samples.

Results

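Oxidative phosphorylation is the last stage of cellular respiration, in which protein complexes of the inner mitochondrial membrane pass electrons to oxygen and ATP synthase uses the resulting proton gradient to make ATP. The genes described here encode nuclear subunits of complexes I to V and factors that assemble them. They were chosen by symbol alone, as every probe with a single gene symbol that began with Nduf, Uqcr, Atp5 or Cox and a digit, or that was Sdha, Sdhb, Sdhc or Sdhd. The rule found 49 of the 6455 genes named on the array. They had 50 of its 10399 probes, of which 7294 carried 1 symbol. Subunits of complex I had 15 probes, complex II 2, complex III 3, complex IV 5 and complex V 11, and assembly factors and accessory proteins had 14 probes of 13 genes. Sdha, Sdhc and the ATP synthase inhibitor Atp5if1 were not among them.

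The tissue was the mesenteric artery, the vessel bed that feeds the gut, of female Sprague Dawley rats. All 12 rats had lost their ovaries at 3 weeks of age, recovered for 2 weeks and were 5.5 weeks old when killed. Every group, vehicle included, thus describes young animals without ovaries. By intraperitoneal injection on 4 days, 4 rats received estradiol benzoate (an ester that releases estradiol, 0.15 mg per kg per day), 4 received testosterone (1 mg per kg per day) and 4 received the sesame oil vehicle. The RNA of each rat was hybridised to 2 one-colour CodeLink arrays (24 in all), and the rat, as the mean of its 2 arrays on the log2 scale, was the replicate. Numbers given to single rats are those of the labels.

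In smooth muscle and endothelium, the main cells of an artery wall, mitochondria supply ATP and also shape calcium and oxidant signals. Complex I (NADH dehydrogenase) and complex II (succinate dehydrogenase) take up electrons, complex III hands them to cytochrome c, complex IV (cytochrome c oxidase) gives them to oxygen, and complex V is ATP synthase. Most subunits are nuclear genes, and several complex IV and ATP synthase subunits exist as isoforms that differ between tissues.

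All 50 probes had enough values to be tested. Of these, 37 had a value on all 24 arrays and the others on at least 22. Intensities were scaled by the authors to an array median just below 1 (0.926 to 0.951), so a log2 level near 0 is an average probe. The mean log2 level lay above 0 for 41 of the 50 probes, and 27 were among the brightest 10% of all 10228 probes tested. The 2 probes in the lowest 25% were Cox6a2, the heart and muscle isoform of a complex IV subunit, and Cox8b, an isoform of heart, muscle and brown fat, with mean intensities of 0.0281 and 0.0154. Cnn1 and Smtn, the smooth muscle markers measured, had mean log2 levels of 5.11 and 2.17. The endothelial markers measured, Pecam1, Tek, Vwf and Kdr, had 4.88, 3.48, 2.34 and -2.38, with Kdr in the lowest 25% of probes.

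Markers of other cell types that the samples could hold were summed in each rat on the intensity scale. The 7 white adipocyte markers measured (of 13 listed) summed to 93.8 to 99.4 with estradiol benzoate, 84.5 to 112 with testosterone and 76.3 to 89.4 with vehicle, and none was in the lowest 25% of probes. The 5 brown adipocyte markers (of 8) summed to 6.02 to 7.53, 4.96 to 6.51 and 4.60 to 5.18 in the same order, with Ppargc1a alone in the lowest 25%. Striated muscle markers (7 of 13, 4 in the lowest 25%) summed to 4.02 to 6.17, 3.94 to 8.36 and 2.41 to 6.44. One of the 7 was Tnnt2, a different gene that the name match put in place of the listed Tnnt3. Pancreatic acinar markers (6 of 9, 5 in the lowest 25%) summed to 0.453, 91.1, 1.44 and 4.40 with estradiol benzoate, 0.462, 0.463, 2.02 and 0.377 with testosterone and 0.409, 0.436, 0.491 and 1.08 with vehicle. Rat 3 was thus the highest of the estradiol benzoate rats, rats 5 and 8 also lay above all vehicle rats, and all 6 markers had a higher mean with estradiol benzoate than with vehicle, 4 of them at an unadjusted p under 0.05. Hepatocyte markers (7 of 11, 4 in the lowest 25%) summed to 1.95, 2.01, 1.98 and 1.76 with estradiol benzoate, 1.82, 1.47, 1.66 and 1.44 with testosterone and 5.26, 3.65, 25.9 and 1.63 with vehicle. Vehicle rats 3, 4 and 5 lay above all rats given a hormone, with rat 5 the highest, and 6 of the 7 markers had a lower mean with each hormone than with vehicle, 3 at an unadjusted p under 0.05 with estradiol benzoate and 5 with testosterone. Lymphocyte markers (6 of 9, 5 in the lowest 25%) summed to 0.607 to 0.954, 0.592 to 0.838 and 0.460 to 0.599. For the sums of the white adipocyte, brown adipocyte and lymphocyte lists, all estradiol benzoate rats lay above all vehicle rats. Of the single markers, 6, 5 and 6 had a higher mean with estradiol benzoate than with vehicle, where 47.6% of all probes did. The 1 white adipocyte marker that was lower was Adipoq (-0.08), among the brightest of its list. The 2 smooth muscle markers (of 8) summed to 31.9 to 43.7, 34.1 to 44.7 and 35.5 to 52.8, and 4 endothelial markers (of 6, 1 in the lowest 25%) to 36.8 to 47.1, 42.0 to 55.1 and 44.6 to 52.4. The 4 nerve and Schwann cell markers (of 7) summed to 33.7 to 37.3, 29.2 to 37.5 and 6.35 to 48.9, where the lowest sum, in vehicle rat 5, lacks a value for Pmp22. The part of these cells in the results below was not tested, and in whole arteries fewer cells of a type and less RNA per cell cannot be told apart.

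Promoters of 45 of the 49 genes were found in the RefSeq table of build GRCr8, each running from 250 bases before to 50 bases after the gene start. They were searched on both strands for the palindromic core bound by NRF1, a transcription factor known for respiratory genes (GCGCATGCGC), the extended half-site of the estrogen-related receptor ERR alpha (TCAAGGTCA) and the estrogen response element (GGTCANNNTGACC). The NRF1 core was present in 4 of 45 member promoters (8.89%), against 0.852% of all 33469 promoters in the table and 1.96% of the 5623 promoters of genes on the array. The ERR alpha half-site was present in 2 of 45 (4.44%), against 0.433% of all promoters and 0.178% of those on the array. No member promoter held the estrogen response element, and 0 of the 5623 promoters of genes on the array did. Only 9 of all 33469 promoters held it (0.0269%), so its absence does not set the members apart. A match is a string of letters and does not show binding. The 6 matches are shown 5′ to 3′ in the direction of the gene, with the matched letters in capitals. The ERR alpha string appears as its reverse complement in both Sdhd and Atp5mc3. It begins 35 bases after the gene start in Sdhd and 57 before it in Atp5mc3.
Sdhd (chr8:59850592-59850631, minus strand): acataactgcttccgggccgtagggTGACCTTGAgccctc
Atp5mc3 (chr3:79220688-79220746, minus strand): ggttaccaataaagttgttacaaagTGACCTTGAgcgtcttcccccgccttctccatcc
Atp5mc2 (chr7:135678240-135678299, minus strand): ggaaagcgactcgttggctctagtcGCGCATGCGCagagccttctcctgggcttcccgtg
Atp5po (chr11:44657508-44657567, minus strand): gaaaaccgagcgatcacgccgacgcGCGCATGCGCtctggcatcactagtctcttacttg
Cox18 (chr14:18149961-18150020, plus strand): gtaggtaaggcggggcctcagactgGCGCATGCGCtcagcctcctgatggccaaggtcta
Ndufaf4 (chr5:43401612-43401671, plus strand): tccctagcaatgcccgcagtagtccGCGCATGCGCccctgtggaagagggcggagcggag

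**Figure D1:**
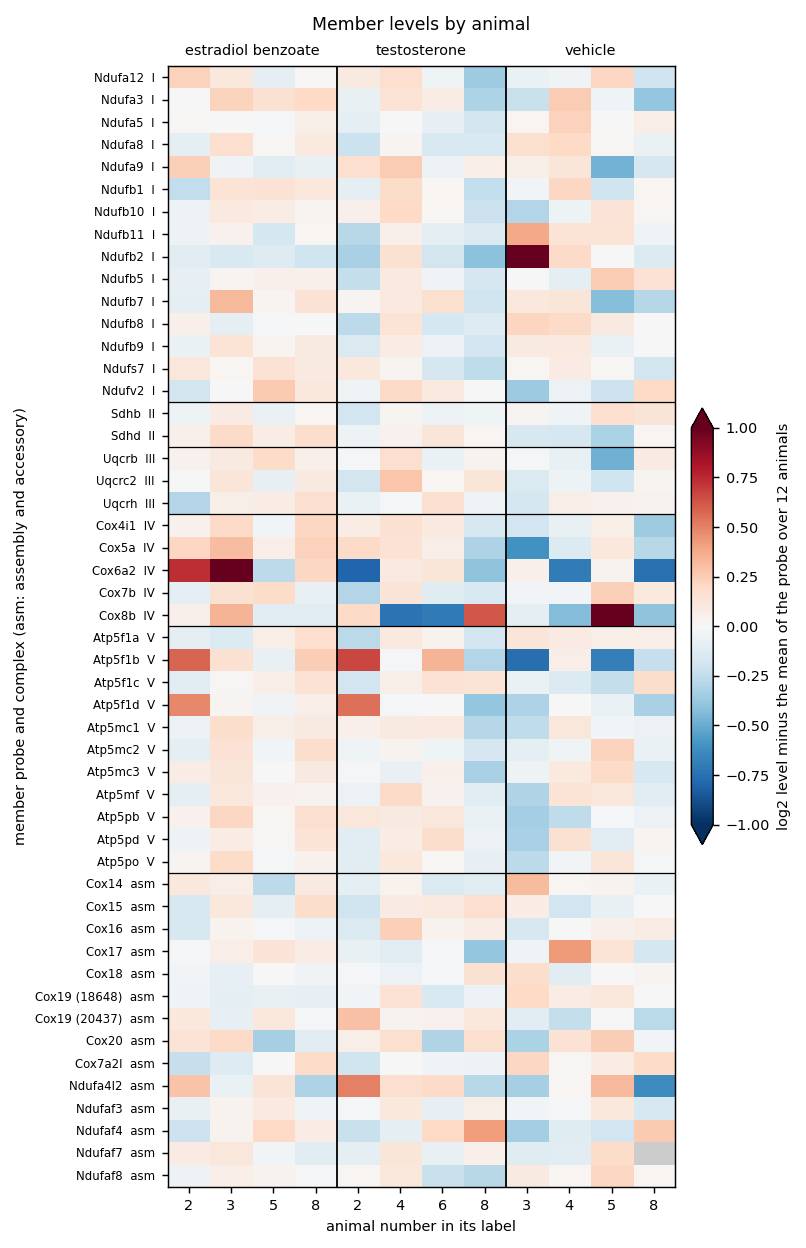
Level of each member probe (rows, by complex, asm: assembly and accessory) in each of the 12 rats (columns, numbered as in the labels), as log2 intensity minus the mean of the probe over the rats, with the colour scale ending at -1 and 1 and grey for a missing value. Most cells are pale, and the strong colours lie in the dim Cox6a2 and Cox8b, in Ndufb2 of vehicle rat 3 and in Atp5f1b.

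The first comparison asked how estradiol benzoate acts on these genes, against vehicle. No member passed an adjusted p under 0.05 in limma, as none of the 10228 probes did (0%). The smallest adjusted p of a member was 0.247. At an unadjusted p under 0.05, 6 members were higher with estradiol benzoate, where 6.77% of all probes were, and 0 were lower, where 6.69% of all probes were. The 6 were Sdhd, Atp5pb, Cox5a, Atp5f1b, Cox6a2 and Cox4i1, from complexes II, IV and V. The median log2 difference was 0.05 over the members and -0.01 over all probes, and the 95% interval lay within 0.5 on either side of 0 for 41 of the 50. Estradiol benzoate and vehicle rats did not overlap for 2 members that were higher (3.53% of all probes) and 1 that was lower (4.29%). The count of 6 was 3 without estradiol benzoate rat 2 (5.79% of all probes), and 3 members were lower without vehicle rat 8 (6.76%). Without both estradiol benzoate rat 3 and vehicle rat 5, the rats with the highest sums of pancreatic and hepatocyte markers, 4 members were higher (3.84% of all probes) and 0 lower (4.69%), and the raised sums in other rats stayed in the fit.

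Sdhd encodes a membrane anchor of succinate dehydrogenase. Its log2 levels were 2.70, 2.85, 2.73 and 2.83 with estradiol benzoate (rats 2, 3, 5 and 8), 2.60, 2.70, 2.78 and 2.68 with testosterone (rats 2, 4, 6 and 8) and 2.50, 2.49, 2.34 and 2.68 with vehicle (rats 3, 4, 5 and 8), and the rats keep this order in the values below. The lowest estradiol benzoate rat lay just above the highest vehicle rat, while testosterone overlapped both. The difference from vehicle was 0.28 with estradiol benzoate (SE 0.09, 95% interval 0.09 to 0.47, unadjusted p = 0.00756, adjusted p = 0.247 in limma) and 0.19 with testosterone (SE 0.09, adjusted p = 0.358 in limma). Sdhb, the iron-sulfur subunit of the same complex, differed by -0.08 (SE 0.08) and -0.14 (SE 0.08). Its sign was opposite to that of Sdhd in both comparisons.

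Complex IV held 3 of the 6. Cox5a, a nuclear subunit, had log2 levels of 2.66, 2.75, 2.51 and 2.67 with estradiol benzoate, 2.64, 2.59, 2.51 and 2.14 with testosterone and 1.84, 2.31, 2.55 and 2.17 with vehicle. Vehicle rat 5 lay inside the estradiol benzoate range and the other 3 vehicle rats below it. The difference between estradiol benzoate and vehicle was 0.43 (SE 0.15, 95% interval 0.10 to 0.77, adjusted p = 0.291 in limma). Cox4i1, the common isoform of subunit 4, had log2 levels of 4.00, 4.14, 3.92 and 4.16 with estradiol benzoate, 4.02, 4.10, 4.05 and 3.79 with testosterone and 3.76, 3.88, 4.01 and 3.59 with vehicle, a difference of 0.24 between estradiol benzoate and vehicle (SE 0.11, adjusted p = 0.361 in limma). Here too only vehicle rat 5 reached the estradiol benzoate range.

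The other complex IV probes differ in how well they were measured. Cox6a2 differed between estradiol benzoate and vehicle by 0.92 (SE 0.38, 95% interval 0.10 to 1.75, adjusted p = 0.327 in limma), with log2 levels of -4.41, -3.51, -5.42 and -4.95 against -5.10, -5.85, -5.12 and -5.89. Estradiol benzoate rat 5 lay below 2 of the vehicle rats. For this dim probe the SD between rats of a group was 0.59 and that between duplicate arrays 0.51. Cox8b differed by -0.07 (SE 0.41), with an SD of 0.64 between rats. Cox7b, a subunit present in most tissues, differed by -0.03 (SE 0.11).

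In complex V, 10 of 11 probes were higher with estradiol benzoate than with vehicle, where 47.6% of all probes were, and 2 of these had an unadjusted p under 0.05, where 6.77% of all probes did. Atp5pb, subunit b of the peripheral stalk, had log2 levels of 3.38, 3.54, 3.36 and 3.50 with estradiol benzoate, 3.45, 3.43, 3.45 and 3.27 with testosterone and 3.00, 3.08, 3.32 and 3.28 with vehicle. The estradiol benzoate rats did not overlap the vehicle rats, and of the testosterone rats only rat 8 fell among them. The differences from vehicle were 0.28 with estradiol benzoate (SE 0.09, adjusted p = 0.284 in limma) and 0.23 with testosterone (SE 0.09, adjusted p = 0.324 in limma).

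Atp5f1b, the catalytic beta subunit, showed the largest difference of complex V. Its log2 levels were 3.77, 3.34, 3.12 and 3.44 with estradiol benzoate, 3.86, 3.17, 3.53 and 2.90 with testosterone and 2.44, 3.26, 2.51 and 2.96 with vehicle. Of the vehicle rats, only rat 4 reached the estradiol benzoate range, while rats 4 and 8 reached that of testosterone. It differed from vehicle by 0.63 with estradiol benzoate (SE 0.24, 1.54-fold, adjusted p = 0.307 in limma) and by 0.57 with testosterone (SE 0.24, adjusted p = 0.324 in limma). Its SD between rats, 0.37, was above the SD between its duplicate arrays, 0.12. The alpha subunit Atp5f1a differed by -0.08 (SE 0.10) with estradiol benzoate and -0.16 (SE 0.10) with testosterone, and the central stalk subunit Atp5f1d by 0.31 (SE 0.18) and 0.21 (SE 0.18).

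The 3 genes Atp5mc1, Atp5mc2 and Atp5mc3 encode the same mature subunit c of the membrane ring. With estradiol benzoate they differed from vehicle by 0.13 (SE 0.11), 0.04 (SE 0.10) and 0.05 (SE 0.10), and with testosterone by 0.05 (SE 0.11), -0.06 (SE 0.10) and -0.11 (SE 0.10). All 6 intervals included 0.

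**Figure D2:**
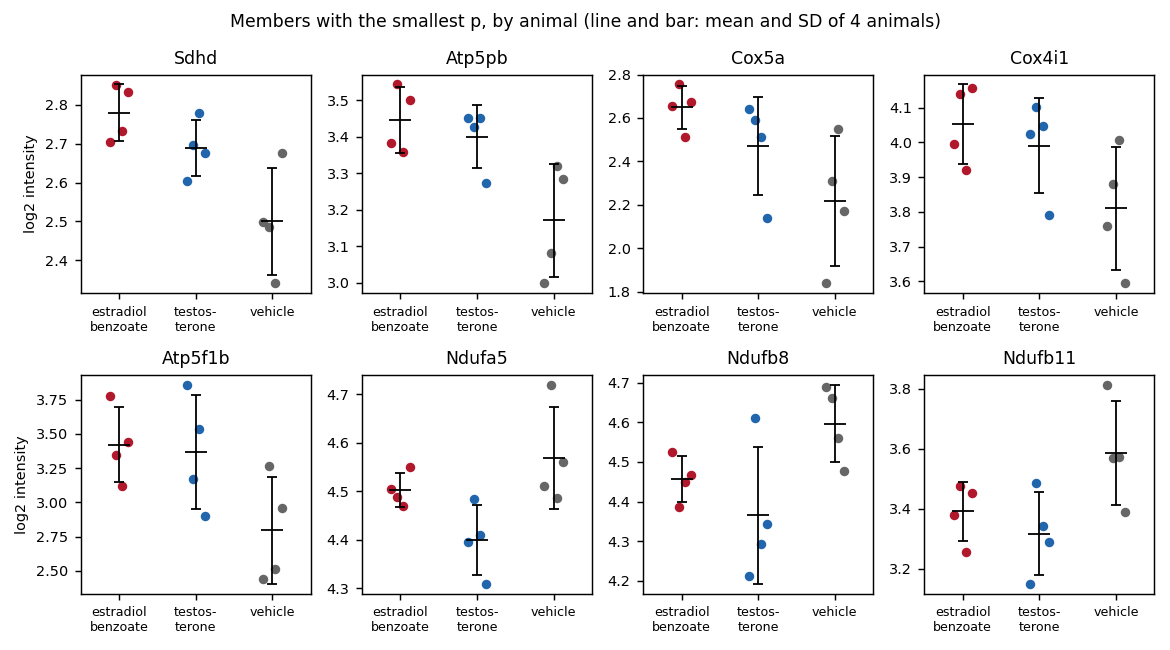
Log2 intensity of 8 members in each rat (points), with the mean and SD of the 4 rats of each group (line and bar), each panel on its own axis. Estradiol benzoate and vehicle rats do not overlap for Sdhd and Atp5pb, and the testosterone rats lie below all vehicle rats for Ndufa5.

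Complex I and complex III had no member at an unadjusted p under 0.05 with estradiol benzoate, where 6.77% of all probes were higher and 6.69% lower. In complex I, 9 of 15 probes were higher and 6 lower, where 47.6% of all probes were higher, and the differences ran from -0.49 to 0.24. The 3 with the smallest p were Ndufb2 (-0.49, SE 0.26) and Ndufb11 (-0.19, SE 0.11), accessory subunits of the membrane arm, and Ndufa3 (0.24, SE 0.14), another accessory subunit. Ndufb2 had log2 levels of -1.31, -1.35, -1.33 and -1.40 with estradiol benzoate, -1.52, -1.05, -1.38 and -1.61 with testosterone and 0.11, -1.01, -1.20 and -1.33 with vehicle, and vehicle rat 3 stood above every other rat. In complex III, Uqcrb, Uqcrc2 (a core protein) and Uqcrh (the hinge subunit) differed by 0.21 (SE 0.12), 0.13 (SE 0.10) and 0.01 (SE 0.11).

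Among assembly and accessory proteins, 6 of 14 probes were higher with estradiol benzoate and 8 lower, with a median of -0.03, where 47.6% of all probes were higher. Cox19, a factor needed to assemble complex IV, had 2 probes that disagreed. Probe 18648 had log2 levels of 2.06, 2.00, 2.03 and 2.02 with estradiol benzoate and 2.30, 2.18, 2.22 and 2.10 with vehicle, without overlap (difference -0.17, SE 0.08, adjusted p = 0.381 in limma). Probe 20437 differed by 0.18 (SE 0.09, adjusted p = 0.411 in limma), so the direction for Cox19 depends on the probe. Cox7a2l, a factor that joins complexes into supercomplexes, differed by -0.17 (SE 0.10), and Ndufa4l2, a paralog of a subunit of complex IV, by 0.17 (SE 0.22).

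The second comparison asked the same of testosterone. It shares the vehicle rats with the first, so the values of the 2 comparisons are not independent. No member passed an adjusted p under 0.05 in limma (0.0489% of all probes did), and the smallest adjusted p of a member was 0.277. At an unadjusted p under 0.05, 3 members were higher (6.62% of all probes) and 3 lower (7.43%). Atp5pb, Atp5f1b and Cox19 probe 20437 were higher, and the accessory complex I subunits Ndufb11, Ndufb8 and Ndufa5 lower. The median difference was 0.02 over the members and -0.01 over all probes, and 39 of 50 intervals lay within 0.5 on either side of 0. Groups did not overlap for 1 member that was higher (2.45% of all probes) and 2 that were lower (3.14%).

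In complex I, 10 of 15 probes were lower with testosterone and 5 higher, where 47.7% of all probes were higher, and the median was -0.05. Ndufb11 had log2 levels of 3.15, 3.49, 3.34 and 3.29 with testosterone and 3.81, 3.57, 3.57 and 3.39 with vehicle, a difference of -0.27 (SE 0.11, adjusted p = 0.318 in limma). Vehicle rat 8 lay below testosterone rat 4, so the groups overlapped. Ndufb8 had 4.21, 4.61, 4.29 and 4.34 with testosterone and 4.69, 4.66, 4.56 and 4.48 with vehicle (difference -0.23, SE 0.10, adjusted p = 0.325 in limma), with testosterone rat 4 again among the vehicle rats. Ndufa5 had 4.40, 4.48, 4.41 and 4.31 with testosterone and 4.51, 4.72, 4.49 and 4.56 with vehicle (difference -0.17, SE 0.08, adjusted p = 0.355 in limma). For Ndufa5 all testosterone rats lay below all vehicle rats, by a narrow gap. The count of 3 lower members depended on single rats: it was 9 without testosterone rat 4, 5 without vehicle rat 8, 1 without testosterone rat 6, vehicle rat 3 or vehicle rat 4, and 0 without testosterone rat 2 or rat 8, where 4.99% to 7.73% of all probes were. The count of 3 higher members was 5 without testosterone rat 8 or vehicle rat 8 and 1 without testosterone rat 6 or vehicle rat 3 (4.85% to 8.39% of all probes). Without both estradiol benzoate rat 3 and vehicle rat 5 the counts were 3 higher (4.90% of all probes) and 0 lower (6.16%). With quantile normalization they were 5 higher (6.24%) and 0 lower (6.17%), and with only the rats of these 2 groups fitted 2 higher (4.90%) and 0 lower (5.33%).

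Cox19 probe 20437 had log2 levels of -0.75, -1.001, -0.99 and -0.93 with testosterone and -1.15, -1.27, -1.03 and -1.31 with vehicle, without overlap (difference 0.27, SE 0.09, adjusted p = 0.277 in limma). Probe 18648 of the same gene differed by -0.12 (SE 0.08), the other direction. Cox7a2l differed by -0.19 (SE 0.10) and had no overlap between testosterone and vehicle rats. Ndufaf8, a complex I assembly factor, differed by -0.18 (SE 0.10), Cox17, a copper chaperone for complex IV, by -0.23 (SE 0.13), and Ndufa4l2 by 0.30 (SE 0.22).

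Complexes III and IV had no member at an unadjusted p under 0.05 with testosterone, where 6.62% of all probes were higher and 7.43% lower. Uqcrb, Uqcrc2 and Uqcrh differed by 0.16 (SE 0.12), 0.15 (SE 0.10) and 0.01 (SE 0.11). Cox5a, Cox4i1 and Cox7b differed by 0.25 (SE 0.15), 0.18 (SE 0.11) and -0.18 (SE 0.11). The dim Cox6a2 and Cox8b differed by 0.10 (SE 0.38) and -0.27 (SE 0.41).

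**Figure D3:**
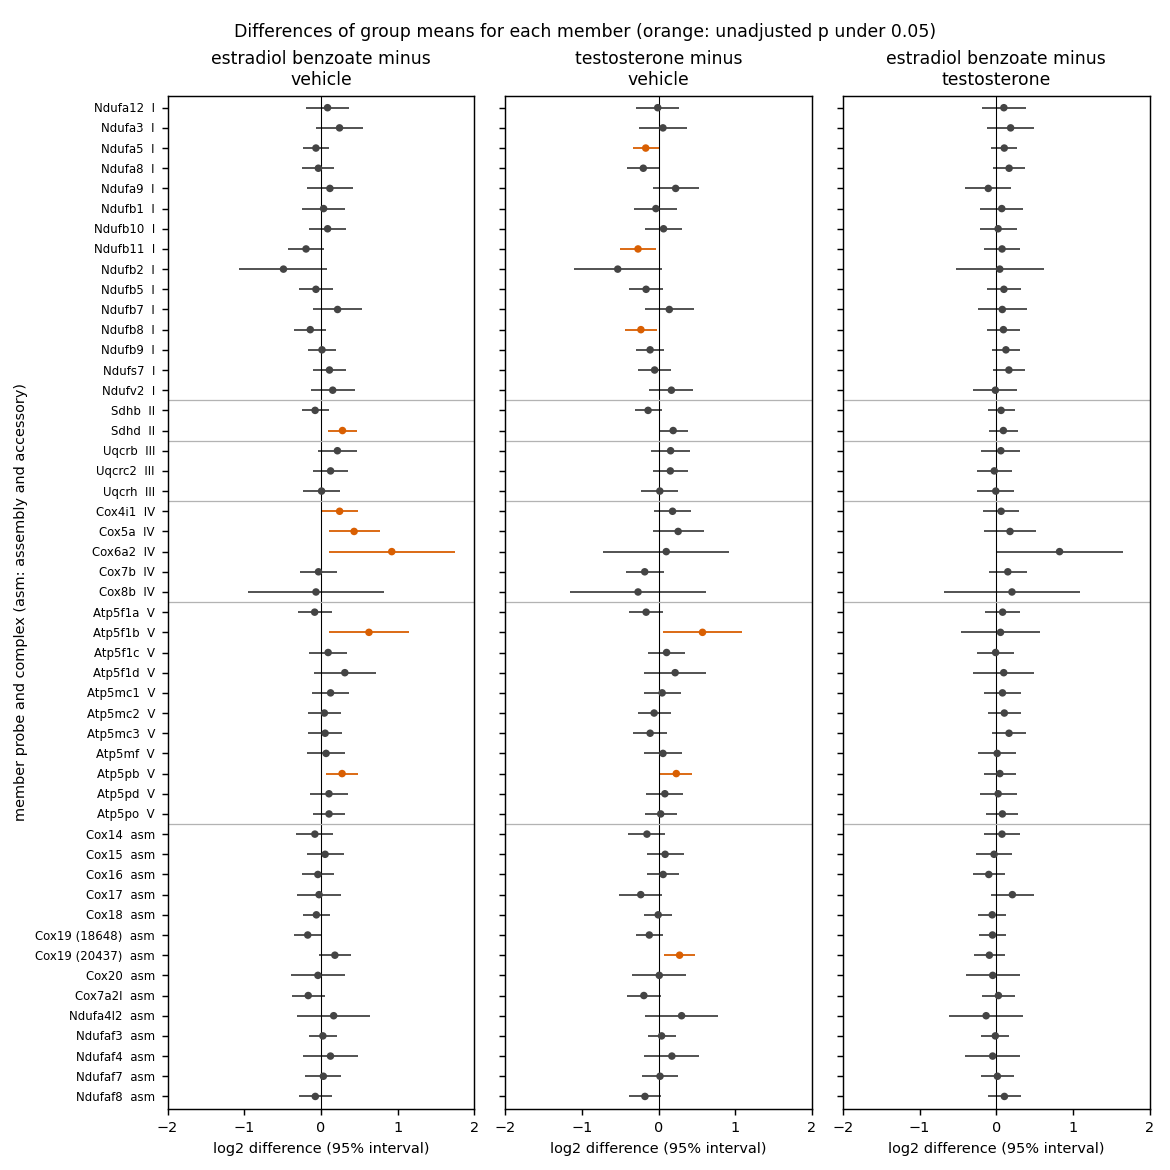
Log2 difference of each member probe with its 95% interval from limma, for estradiol benzoate minus vehicle, testosterone minus vehicle and estradiol benzoate minus testosterone, with members by complex and orange for an unadjusted p under 0.05. The orange points number 6, 6 and 0, and most intervals cross 0.

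The third comparison set both hormones against each other. No member passed an adjusted p under 0.05 in limma (0.0293% of all probes did), each member had an adjusted p of 0.999, and 0 were higher (2.41% of all probes) or lower (1.71%) at an unadjusted p under 0.05. No member had groups without overlap, against 1.88% of all probes higher and 1.17% lower. The median difference was 0.07 over the members and -0.00 over all probes. Estradiol benzoate had the higher mean for 31 of the 36 probes of subunits of complexes I to V and for 5 of the 14 assembly and accessory probes, against 48.5% of all probes. For 44 of the 50 the interval lay within 0.5 on either side of 0, so larger differences were outside the interval for these.

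The differences with the smallest p in each complex were small against their errors. In complex I they were Ndufa8 (0.17, SE 0.09), the core iron-sulfur subunit Ndufs7 (0.16, SE 0.10) and Ndufb9 (0.12, SE 0.09). In complex II, Sdhb and Sdhd differed by 0.06 (SE 0.08) and 0.09 (SE 0.09), and in complex III Uqcrb, Uqcrc2 and Uqcrh by 0.06 (SE 0.12), -0.03 (SE 0.10) and -0.01 (SE 0.11). Cox6a2 had the smallest p of all members, with 0.82 (SE 0.38, unadjusted p = 0.0502 in limma). Also in complex IV, Cox7b and Cox5a differed by 0.15 (SE 0.11) and 0.18 (SE 0.15). Cox4i1 and Cox8b differed by 0.06 (SE 0.11) and 0.20 (SE 0.41). In complex V, Atp5mc3, Atp5mc2 and the peripheral stalk subunit Atp5po differed by 0.17 (SE 0.10), 0.10 (SE 0.10) and 0.08 (SE 0.10), and Atp5mc1 by 0.08 (SE 0.11). Cox17, Ndufaf8 and Cox16, a complex IV assembly factor, differed by 0.21 (SE 0.13), 0.10 (SE 0.10) and -0.10 (SE 0.10).

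A moderated F test of any difference among the 3 groups called 0 members at an adjusted p under 0.05 (0.00978% of all probes) and gave 5 an unadjusted p under 0.05 (11.9% of all probes). These 5 were Sdhd, Atp5pb, Cox19 probe 20437, Atp5f1b and Cox5a.

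By complex, the mean deviation of the probes from their own mean over all rats was taken in each rat. For complex V it was 0.06, 0.10, 0.01 and 0.12 with estradiol benzoate, 0.05, 0.06, 0.09 and -0.17 with testosterone and -0.24, 0.02, -0.04 and -0.07 with vehicle. Estradiol benzoate rat 5 lay just below vehicle rat 4, so the groups overlapped, and testosterone rat 8 stood apart from its group. For complex IV without the dim Cox6a2 and Cox8b, the group means were 0.11 ± 0.07, -0.02 ± 0.14 and -0.10 ± 0.17 (SD, n = 4 each) for estradiol benzoate, testosterone and vehicle. For complex I they were 0.03 ± 0.04, -0.05 ± 0.13 and 0.02 ± 0.09, and for assembly and accessory proteins -0.01 ± 0.02, 0.00 ± 0.04 and -0.00 ± 0.06. The spread of the complex I mean among testosterone rats, from -0.19 in rat 8 to 0.12 in rat 4, was wider than any difference between its group means.

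**Figure D4:**
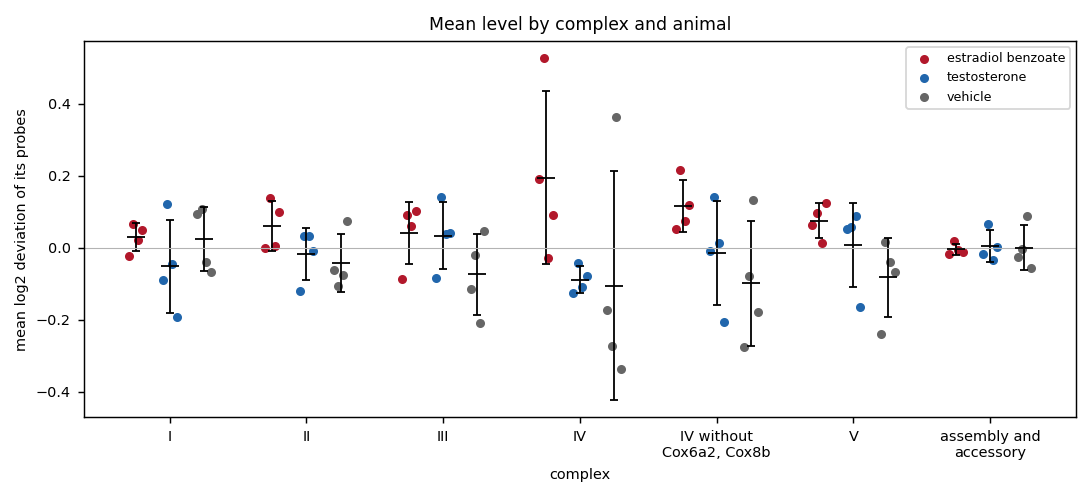
Mean log2 deviation of the probes of each complex from their mean over all 12 rats, for each rat (points), with group mean and SD (line and bar, n = 4), estradiol benzoate left of testosterone and vehicle. Groups overlap in every complex except complex IV with Cox6a2 and Cox8b, where testosterone lies below estradiol benzoate, and testosterone rat 8 is the lowest of its group in complex V at -0.17.

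The members varied less between rats of a group than most probes did. Their median SD was 0.146, against 0.195 over all probes tested, and between duplicate arrays 0.110 against 0.119. Members are brighter than most probes, and their part in this was not tested. After group means were removed, pairs of member probes correlated over the 12 rats with a median r of 0.15, against -0.00 for all pairs of single-symbol probes. Within a complex the median r was 0.24 and between complexes 0.12. It was 0.28 within complex I, 0.38 within complex V and 0.04 among assembly and accessory proteins. Restricted to probes above the array median, it was 0.23 for members and 0.03 for all single-symbol pairs. These pairs share rats, arrays and their scaling, and the values are a description of 49 members with a value in every rat. Atp5mf, Ndufa3 and Ndufb9 had the highest mean r with the other members (0.29, 0.27 and 0.27), and Cox18 the lowest (-0.27). Of the 1176 pairs, Cox17 and Ndufa3 had the highest r (0.93) and Atp5mc1 and Cox18 the lowest (-0.92).

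Other mitochondrial genes were counted from lists outside the rule, and none passed an adjusted p under 0.05. The alternative fits, including those with rats left out, were counted for the members only. How far the list counts here and below depend on single rats was therefore not tested. The same holds for the rats with the highest sums of pancreatic and hepatocyte markers. Of 11 measured genes of the TCA cycle and pyruvate metabolism, 10 were higher with estradiol benzoate than with vehicle (47.6% of all probes). Of these 10, 7 had an unadjusted p under 0.05 (6.77% of all probes). The list holds the kinases Pdk1, Pdk2 and Pdk4 beside enzymes of these pathways, so its counts do not measure the supply of electrons. The smallest p belonged to Dlat, a pyruvate dehydrogenase subunit (0.59, SE 0.11, adjusted p = 0.125 in limma), Pc, pyruvate carboxylase (0.63, SE 0.18), and Pdk2, a kinase that inhibits pyruvate dehydrogenase (0.97, SE 0.33). The list's median was 0.35, against -0.01 over all probes. With testosterone 9 of 11 were higher (47.7% of all probes), 3 at an unadjusted p under 0.05 (6.62% of all probes), namely Suclg1 (0.39, SE 0.12), Idh3g (0.43, SE 0.15) and Pdk2 (0.81, SE 0.33), and the median was 0.23. Pc is abundant in adipocytes, whose markers are given above, and the part of these cells in its difference was not tested.

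The same shares over all probes apply to the next lists. Of 14 electron carriers and assembly factors, 13 were higher with estradiol benzoate, 3 at an unadjusted p under 0.05: the ATP synthase assembly factor Atpaf2 (0.25, SE 0.09), cytochrome c (Cycs, 0.28, SE 0.11) and Coq3, of coenzyme Q synthesis (0.25, SE 0.11). With testosterone 11 were higher, and Atpaf2 (0.27, SE 0.09) and Coq3 (0.25, SE 0.11) had an unadjusted p under 0.05. Of 13 glycolytic genes, 10 were higher with estradiol benzoate, 3 at an unadjusted p under 0.05: Aldoc (0.63, SE 0.13), Ldhb (0.31, SE 0.10) and Eno1 (0.66, SE 0.30). With testosterone 11 were higher and 0 had an unadjusted p under 0.05. Between the hormones, Dlat (0.36, SE 0.11), Aldoc (0.46, SE 0.13), Ldhb (0.25, SE 0.10) and Sod2, the mitochondrial superoxide dismutase (0.31, SE 0.11), were higher with estradiol benzoate at an unadjusted p under 0.05 (2.41% of all probes).

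Of 18 listed regulators of mitochondrial biogenesis, 7 were measured, and Nrf1, Esrra (ERR alpha) and Esrrg were not among them. With estradiol benzoate 0 of the 7 had an unadjusted p under 0.05 and the median was -0.01. With testosterone, the coactivator Ppargc1a was higher (0.26, SE 0.10, adjusted p = 0.311 in limma) and Gabpb1, a subunit of the factor NRF2 (GABP), lower (-0.53, SE 0.19, adjusted p = 0.295 in limma). The Ppargc1a probe is dim, with a mean log2 level of -3.44, and is also counted among the brown adipocyte markers above. None of 8 nucleotide and proton carriers had an unadjusted p under 0.05 against vehicle. The smallest p with either hormone belonged to the phosphate carrier Slc25a3 (0.17, SE 0.08 with both). The 3 antioxidant genes measured had none against vehicle either.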

How the data were processed

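Per the labels' protocols, 2 arrays per rat were hybridised with the same cRNA. The deposited values are spot intensity scaled by the authors to an array median near 1; for scanner software and background correction, the method is not given in the sources used here. Values at or below 0 (327) and blanks (6931) were taken as missing, log2 was taken without a pseudocount and duplicates were averaged. Probes with a value in at least 3 rats of each group (10228) were fitted with limma 3.58.1 in R 4.3.3 (group means over all 12 rats, lmFit and eBayes, two-sided, Benjamini-Hochberg over all probes tested). The fit was tested on simulated data. The number of rats limits the precision. The p-values set differences of group means against the spread between these rats, moderated by limma over all probes tested. For each comparison the text names the 3 members with the smallest unadjusted p in complexes I, III, IV, V and the assembly group. It also names all complex II members, isoform families, genes with 2 probes and up to 3 genes per related list. Between the hormones, the differences of Cox7a2l, Ndufa4l2 and the Cox19 probes in the main fit are left out. Other members are named for their values. Probe symbols come from the platform annotation. No macrophage marker had a probe. Replicate numbers shared between groups were checked as pairs, and same-numbered rats correlated between -0.12 and 0.30, so they were not treated as pairs. Letter strings other than the 3 promoter motifs were looked at during the work and are not reported. Members and lists were chosen with earlier results of these data known. Alternatives are given in the closing section.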

Additional observations from a re-analysis of the deposited data

Results flagged for a closer look

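Within groups of 4 rats, 1 rat stood far from the other 3 (Dixon's 95% value) for 7 of 173 groups examined, where chance alone gives about 1 in 20. Ndufb1 was at a log2 level of 2.27 in estradiol benzoate rat 2, with the nearest rat of its group at 2.62, and Cox14, a complex IV assembly factor, was at 1.57 in estradiol benzoate rat 5, with the nearest at 1.89. In testosterone rat 8, Atp5mc1 was at 2.42 (nearest 2.75), Atp5pb at 3.27 (nearest 3.43) and the mean deviation of complex V at -0.17 (nearest 0.05). Uqcrh was at 3.79 in vehicle rat 3 (nearest 4.00) and Atp5mc2 at 3.72 in vehicle rat 5 (nearest 3.44).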

How the results depend on the processing

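No member was called at an adjusted p under 0.05 in any comparison under the 23 alternatives (each rat left out in turn, and 11 other settings including 1 chosen after seeing the data, which left out both estradiol benzoate rat 3 and vehicle rat 5), and the lowest adjusted p of a named member was 0.157. Counts at an unadjusted p under 0.05 moved. For estradiol benzoate minus vehicle the count of lower members was 1 with a pseudocount of 0.1 and with AA arrays only. For testosterone minus vehicle the count of higher members was 5 with quantile normalization and 1 with AA arrays only, that of lower members 0 with quantile normalization, with only the groups compared and without both rats named above, and 1 with AB arrays only, and the median over the members was -0.0030 with AA arrays only. For estradiol benzoate minus testosterone the count of higher members was 1 with quantile normalization, with AB arrays only and with 1 probe per gene, and 3 with AA arrays only. With the animal number as a replicate block, testosterone minus vehicle gave 1 higher and 0 lower member; the numbers were not taken as pairs. Leaving out 1 rat gave 3 to 6 higher and 0 to 3 lower members for estradiol benzoate minus vehicle (1 lower without estradiol benzoate rat 8 or testosterone rat 4, 3 without vehicle rat 8), 1 to 5 higher, 0 to 9 lower and a median of -0.027 to 0.055 for testosterone minus vehicle, and 0 to 1 higher for estradiol benzoate minus testosterone. The cause was not tested.

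Cox6a2 and Cox8b gave no value with the dimmest 25% of probes left out, Ndufaf7 none where all 12 rats were required, and Cox19 probe 20437 none with 1 probe per gene. Signs changed for members with differences near 0 or dim probes. With AA arrays only, Uqcrh was -0.16 for both hormones minus vehicle and 2.25e-05 between hormones, Cox7b 0.072 (estradiol benzoate minus vehicle), Cox6a2 -0.39 (testosterone minus vehicle) and Cox8b -0.048 (between hormones). With AB arrays only, Cox8b was 0.037 (estradiol benzoate minus vehicle), Atp5mc3 0.014 and Atp5mc1 -0.029 (testosterone minus vehicle) and Sdhb -0.014 (between hormones). With the replicate block, Cox7b was 0.034 (estradiol benzoate minus vehicle), Atp5mc1 -0.0081 and Cox8b 0.17 (testosterone minus vehicle), and Uqcrc2 0.031, Uqcrh 0.047 and Cox8b -0.44 (between hormones). With quantile normalization, Cox7b was 0.017 and Cox8b 0.093 (estradiol benzoate minus vehicle) and Atp5mc2 0.022 (testosterone minus vehicle). Without both rats, Cox8b was 0.26 (estradiol benzoate minus vehicle) and 0.15, and Atp5mc2 0.015 (testosterone minus vehicle). Leaving out 1 rat gave, for estradiol benzoate minus vehicle, Uqcrh -0.050 to 0.11, Cox7b -0.081 to 0.023, Atp5mc3 -0.0046 to 0.11 and Cox8b -0.25 to 0.36. For testosterone minus vehicle it gave Uqcrh -0.042 to 0.040, Atp5mc1 -0.020 to 0.14, Cox6a2 -0.035 to 0.28, Cox8b -0.53 to 0.15 and Atp5mc2 -0.094 to 0.015. Between hormones it gave Uqcrc2 -0.11 to 0.045, Uqcrh -0.061 to 0.091, Cox7a2l -0.049 to 0.088, Atp5mc1 -0.011 to 0.12, Cox4i1 -0.0045 to 0.11 and Cox19 probe 18648 -0.094 to 0.0067.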

Other observations

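A further 4 probes carried several symbols that include one of these prefixes and were left out of the members. Both probes for Ndufa10 and Ndufa10l1 differed between estradiol benzoate and vehicle by 0.13 (SE 0.09 and 0.07). The probe for Ndufs6 and its pseudogene Ndufs6-ps1 differed from vehicle by 0.43 (SE 0.18, adjusted p = 0.329 in limma) with estradiol benzoate and by 0.51 (SE 0.18, adjusted p = 0.277 in limma) with testosterone. The probe for Atp5me and Luc7l2 differed by 0.26 (SE 0.18) and 0.21 (SE 0.18).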
